A study of Rattus norvegicus with 11 samples.

Results

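The brush border is the carpet of microvilli on the luminal face of the enterocyte, and the 43 genes described here encode its digestive enzymes, its nutrient transporters and the proteins that hold it together. They were chosen by symbol from a list of 44, of which 43 were found among 24481 genes with read counts and 24205 genes with FPKM. The symbol that was not found was Sis. Sucrase-isomaltase is listed in these files as Si, which the list does not hold, so it was not counted.

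RNA was sequenced from the ileum of SD rats aged 6 to 8 weeks. The control group held 3 libraries, and SAP and JZL184 held 4 each. SAP stands for severe acute pancreatitis, which was induced in the SAP and JZL184 groups by an injection of 3% sodium taurocholate, 0.1 ml per 100 g, into the pancreatic duct. The rats were divided into groups 24 h after the surgery and killed 24 h after an intraperitoneal injection. JZL184, a selective inhibitor of monoacylglycerol lipase (MAGL), was given at 10 mg/kg to the JZL184 group, and the other rats received the same volume of vehicle. The surgery is described for the SAP model, and the sources used here do not say whether control rats were operated on. The sample labels name a control plasmid as the treatment of the control rats and carry "oil" in the titles of the SAP rats, whereas the protocol describes vehicle in both groups.

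Sugars, peptides and many vitamins are taken up across the brush border. Disaccharidases and peptidases anchored in its membrane finish digestion, and sodium- or proton-coupled carriers beside them bring the products into the cell. Villin, espin and myosin 1a build and brace the actin core of the microvilli, and the protocadherins CDHR2 and CDHR5 link neighbouring microvilli at their tips. Most of these genes are turned on as enterocytes leave the crypt and climb the villus, under factors such as CDX2, HNF4A and GATA4. Their levels also follow the length of the gut. Lactase and GATA4 belong to its proximal part, the bile acid proteins FABP6 and SLC10A2 to the ileum, and carbonic anhydrase 1 to the colon.

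Between 26341299 and 33847135 reads per library lay on genes. Control libraries 1 and 2 were far closer to each other than other replicates but differed by more than counting noise, which gives a chi-square per gene of about 1, with a value of 2.81 where the other pairs of libraries within a group had 77.5 to 563, and they were counted as 1 sample, which left n = 2 in the control group. The labels give replicate numbers but do not state that each library is a different rat, so p-values measure the spread between libraries, which may in part be technical. The study used male rats, yet SAP library 2 had 20 reads on Y-linked genes (1222 to 4665 in the others) and 7826 on Xist (at most 56 in the others). The labels call the samples intestinal epithelial cells, but genes of smooth muscle (10 of 10 found) summed to FPKM of 399.6 to 2171, so the tissue held more than epithelium. The 6 neutrophil genes summed to 2.59 and 3.24 in the control samples, 9.91 to 85.2 in SAP and 15.9 to 249 in JZL184.

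Markers of position along the gut differed between libraries. Fabp6, the ileal bile acid binding protein, had an FPKM of 21794 and 20506 in the control samples, 6570.5, 3079, 13669.8 and 7598 in SAP and 409.7, 9000.4, 79.9 and 6883 in JZL184. JZL184 libraries 1 and 3 were the lowest for it, and also for the bile acid transporter Slc10a2, with 9.24 and 4.24 where the other libraries lay between 34.9 and 136. Gata4 was at 7.73 in JZL184 library 1 and 3.65 in SAP library 2, and at most 0.34 in any other. Car1 stood at 478 in JZL184 library 3 and 24.5 in JZL184 library 2, against at most 0.79 elsewhere. The epithelial gene Epcam was not low in JZL184 library 3, where its FPKM was 3249 and the other libraries ranged from 2220 to 3814. The median over the members of each comparison is also given without those of JZL184 libraries 1 and 3 and SAP library 2 that enter it, and the part that their position in the gut plays in the values was not tested.

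**Figure D1:**
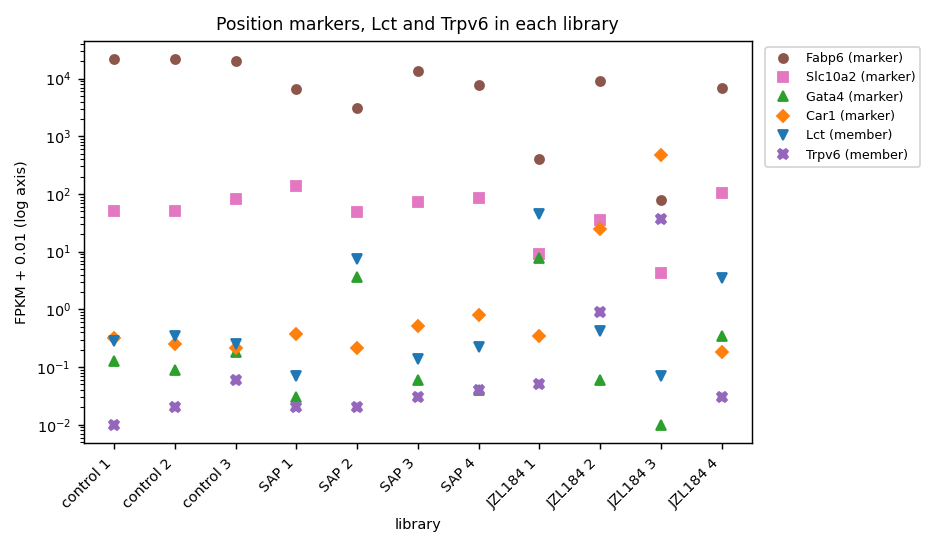
FPKM of 4 position markers (Fabp6 and Slc10a2 for the ileum, Gata4 for the proximal small intestine, Car1 for the colon) and of the members Lct and Trpv6 in each of the 11 libraries, with 0.01 added, on a log axis. Lct stands high in SAP library 2 and JZL184 library 1, as Gata4 does, and Trpv6 and Car1 both stand highest in JZL184 library 3.

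JZL184 library 3 had the lowest FPKM of the 10 samples for 33 of the 43 members, ties included. Over the 38 members with a mean FPKM of at least 1, the median ratio to the control mean was 0.0646 in that library, with 31 members below 0.5 and 22 below 0.1. The other 3 JZL184 libraries had median ratios of 0.823, 0.515 and 0.821. SAP libraries 1 to 4 had 0.600, 0.911, 0.694 and 0.918. The sample of control libraries 1 and 2 held the highest value of 12 members, JZL184 library 1 of 10 and SAP library 2 of 7. In whole tissue, fewer enterocytes and less RNA per enterocyte cannot be told apart, and the part played by position in the gut was not tested.

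**Figure D2:**
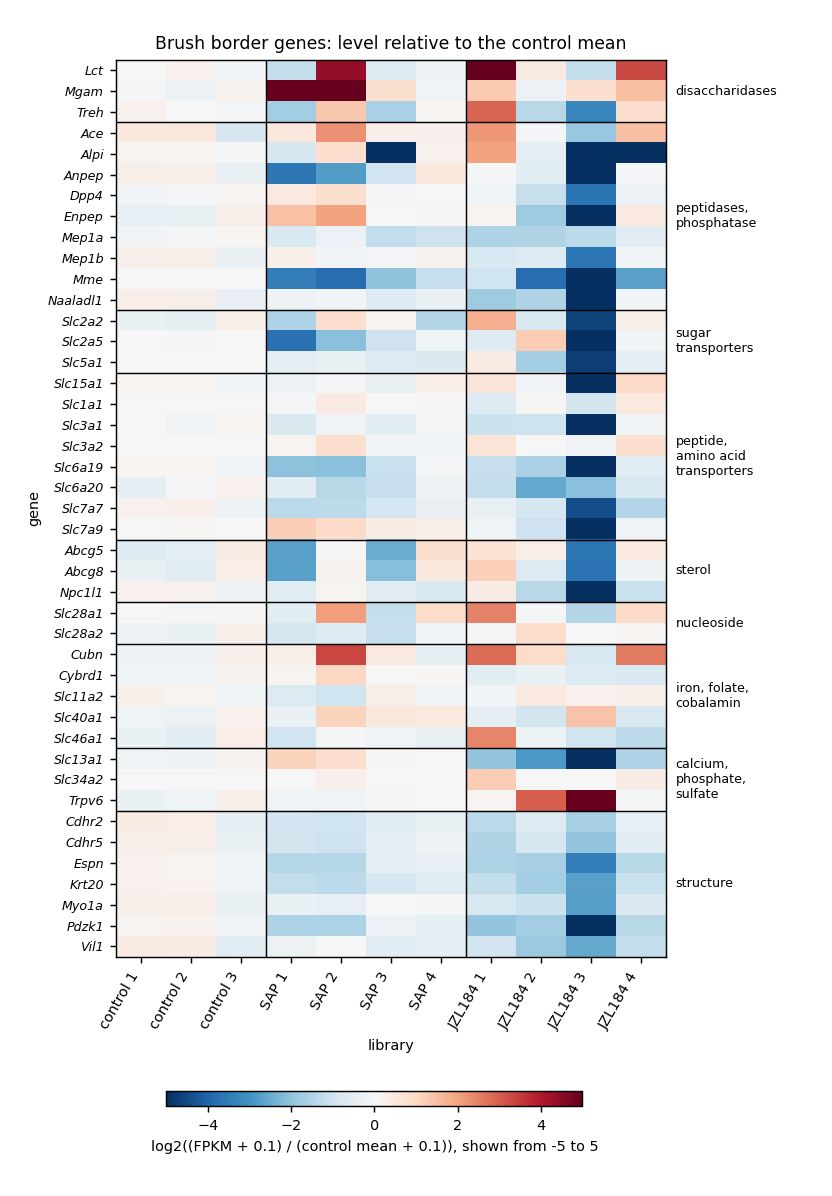
Level of each of the 43 members (rows, grouped by role) in each of the 11 libraries (columns), as log2 of (FPKM + 0.1) over (control mean + 0.1), blue for lower and red for higher than the mean of the control samples. JZL184 library 3 is blue for most transporters and peptidases, and the 7 structural genes are blue in most SAP and JZL184 libraries.

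In the values that follow, FPKM are listed in the order of the replicate numbers, and the first control value is the mean of control libraries 1 and 2. FPKM counts fragments per kilobase of transcript, scaled to library size, so it can be compared between genes. The disaccharidases split milk, starch and trehalose sugars. Mgam, maltase-glucoamylase, on chromosome 4, had an FPKM of 0.125 and 0.19 in the control samples, 12.7, 20.1, 0.35 and 0.12 in SAP and 0.53, 0.11, 0.36 and 0.64 in JZL184. Its transcript was high in SAP libraries 1 and 2, and SAP libraries 3 and 4 lay within the range of the JZL184 libraries. Lct, lactase, on chromosome 13, had 0.3 and 0.24 in the control samples, 0.06, 7.58, 0.13 and 0.21 in SAP and 44.5, 0.41, 0.06 and 3.51 in JZL184. It was highest in JZL184 library 1 and SAP library 2, the libraries with Gata4. Treh, trehalase, lay at 0.01 to 7.7, highest in JZL184 library 1 and lowest in JZL184 library 3.

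Of the peptidases, Anpep (aminopeptidase N, on chromosome 1) had the highest mean over the samples. Mep1b nevertheless exceeded it in SAP libraries 1 and 2 and JZL184 library 3, as did other peptidases in each of these libraries. The FPKM of Anpep were 989.6 and 617 in the control samples, 66.1, 116, 415 and 1164 in SAP and 779, 539, 8.51 and 741 in JZL184. The SAP libraries reached from the second lowest to the highest value of all samples, and the 3 groups overlapped. Mme, neprilysin, on chromosome 2, had 40.9 and 40.9 in the control samples, 3.68, 2.83, 10.2 and 18.2 in SAP and 20.4, 2.85, 0.54 and 6.08 in JZL184. All 8 libraries of the SAP and JZL184 groups were below both control samples, and SAP and JZL184 overlapped. Mep1a, a subunit of meprin, on chromosome 9, had 36.0 and 42.4 in the control samples, 23.4, 32.4, 16.8 and 19.2 in SAP and 13.2, 13.9, 15.4 and 27.2 in JZL184. It was below the control samples in all 8 libraries as well, and JZL184 library 3 lay within the range of the other JZL184 libraries. Mep1b, the other meprin subunit, lay at 20.3 to 301 and Dpp4, dipeptidyl peptidase 4, at 4.82 to 107.

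Enpep, glutamyl aminopeptidase, had FPKM of 1.27 to 281 over the samples and Ace, the angiotensin-converting enzyme, 3.53 to 67.2, with the highest value of both in SAP library 2. Naaladl1, a peptidase of the ileal brush border, had 2.42 to 371. Alpi, intestinal alkaline phosphatase, had 20.8 and 17.9 in the control samples, 10.8, 34.5, 0.33 and 22.4 in SAP and 78.0, 13.7, 0.41 and 0.05 in JZL184. It was near 0 in SAP library 3 and JZL184 libraries 3 and 4 and above 10 in every other sample, so that low values occurred in both groups.

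Sugar uptake rests on 3 members. Slc5a1, the sodium-glucose carrier SGLT1, on chromosome 14, had 72.6 and 72.9 in the control samples, 53.7, 56.4, 44.9 and 44.2 in SAP and 96.6, 22.4, 2.66 and 51.6 in JZL184. The control samples were alike, all SAP libraries lay below them, and the JZL184 libraries reached above and below both groups. Slc2a5, the fructose carrier GLUT5, had 28.0 and 29.3 in the control samples, 2.06, 6.59, 13.9 and 26.3 in SAP and 18.4, 69.4, 0.33 and 26.04 in JZL184. Its highest value was in JZL184 library 2. Slc2a2, the basolateral glucose carrier GLUT2, lay at 0.11 to 18.4.

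The peptide carrier PEPT1, encoded by Slc15a1 on chromosome 15, had 83.5 and 68.1 in the control samples, 61.1, 70.4, 58.3 and 90.2 in SAP and 119.8, 67.4, 1.94 and 147 in JZL184. It was the most abundant transcript among the peptide and amino acid carriers in 6 of the 10 samples and was lowest in JZL184 library 3. Slc6a19, the neutral amino acid carrier B0AT1, had 85.9 and 72.5 in the control samples, 19.1, 18.3, 36.9 and 73.1 in SAP and 36.1, 25.5, 0.37 and 55.1 in JZL184. Slc6a20, an imino acid carrier on chromosome 8, had 2.25 and 3.23 in the control samples, 1.88, 0.98, 1.18 and 2.26 in SAP and 1.15, 0.38, 0.57 and 1.51 in JZL184. The JZL184 libraries were all below both control samples for Slc6a19 and Slc6a20. Slc7a9, the light chain of the cystine carrier, on chromosome 1, had 27.8 and 27.2 in the control samples, 64.7, 53.4, 35.4 and 33.5 in SAP and 23.9, 13.2, 0.32 and 24.4 in JZL184. SAP was above both other groups for it, with no overlap. Its heavy chain Slc3a1 had 37.5 and 42.7 in the control samples, 24.2, 35.5, 27.7 and 37.6 in SAP and 19.1, 19.5, 0.48 and 36.3 in JZL184. The heavy chain did not share the high values of Slc7a9 in SAP libraries 1 and 2. Slc7a7, a basolateral carrier of cationic amino acids, lay at 0.77 to 21.8, Slc3a2, its heavy chain, at 26.1 to 52.4, and Slc1a1, a glutamate carrier, at 1.42 to 3.95.

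Sterols and nucleosides had fewer transcripts. Npc1l1, which takes up cholesterol, lay at 0.37 to 19.7, and Abcg5 and Abcg8, which together form the pump that returns sterols to the lumen, at 0.15 to 5.24 and 0.01 to 3.17. The lowest value of all 3 was in JZL184 library 3. Slc28a2, a sodium-coupled purine nucleoside carrier on chromosome 3, had 2.08 and 3.12 in the control samples, 1.4, 1.62, 1.13 and 2.39 in SAP and 2.4, 4.82, 2.64 and 2.8 in JZL184. The lowest JZL184 library lay just above the highest SAP library, and JZL184 library 2 was higher than the others. Slc28a1, a pyrimidine nucleoside carrier, lay at 0.01 to 1.56.

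Genes of iron, folate and cobalamin uptake were at low levels in this tissue. Slc11a2, the iron carrier DMT1, lay at 2.58 to 7.26, Slc40a1, the iron exporter ferroportin, at 0.52 to 3.03, and Slc46a1, the folate carrier, at 0.07 to 2.18. Cybrd1, the ferric reductase of the brush border, on chromosome 3, had 0.545 and 0.75 in the control samples, 0.73, 1.43, 0.64 and 0.67 in SAP and 0.4, 0.49, 0.37 and 0.34 in JZL184. Each JZL184 library was below every other sample. Cubn, the receptor of cobalamin bound to intrinsic factor, had 0.07 and 0.15 in the control samples, 0.16, 2.05, 0.19 and 0.05 in SAP and 1.35, 0.3, 0.02 and 1.17 in JZL184. It was above 1 in SAP library 2 and in JZL184 libraries 1 and 4, and at most 0.3 elsewhere.

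Slc13a1, a sodium-sulfate carrier on chromosome 4, had 39.3 and 52.0 in the control samples, 100, 81.9, 47.8 and 44.6 in SAP and 11.6, 6.12, 0.27 and 15.8 in JZL184. Every JZL184 library was below every control and SAP sample, with the lowest value again in JZL184 library 3. Trpv6, the apical calcium channel, also on chromosome 4, had 0.005 and 0.05 in the control samples, 0.01, 0.01, 0.02 and 0.03 in SAP and 0.04, 0.9, 36.3 and 0.02 in JZL184. It was all but restricted to JZL184 library 3, with 3207 reads there, 79 in JZL184 library 2 and at most 5 in any other library. Slc34a2, a phosphate carrier, had 0 to 17 reads per library and did not pass edgeR's filter on low counts. DESeq2 gave it a p, so the member counts of DESeq2 include it. DESeq2 gave no p for Lct between SAP and control or between JZL184 and SAP, nor for Trpv6 between JZL184 and control. Its member counts there leave those genes out.

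The 7 structural members included the most abundant transcript of the set. Krt20, keratin 20, on chromosome 10, had 8224 and 6090.4 in the control samples, 3014, 2912, 3857 and 4715 in SAP and 3126, 2197, 1082 and 3275 in JZL184. Both control samples were above all 8 other libraries, and SAP and JZL184 overlapped. Vil1, villin, on chromosome 9, had 495 and 261 in the control samples, 319, 372, 263 and 275 in SAP and 193, 105, 64.0 and 164 in JZL184. The JZL184 libraries were all below those of the other groups. Espn, espin, on chromosome 5, had 205 and 158 in the control samples, 68.4, 67.0, 129.6 and 137 in SAP and 60.2, 57.0, 16.5 and 68.8 in JZL184. For Myo1a, which tethers the actin core to the membrane, the FPKM were 786 and 504 in the control samples, 514, 487, 638 and 618 in SAP and 371, 308, 95.7 and 392 in JZL184. Here too JZL184 lay below both other groups, whereas SAP overlapped the control samples. Pdzk1, a scaffold of apical transporters, lay at 1.28 to 321, and the protocadherins Cdhr2 and Cdhr5 at 54.0 to 219.6 and 107 to 511.

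**Figure D3:**
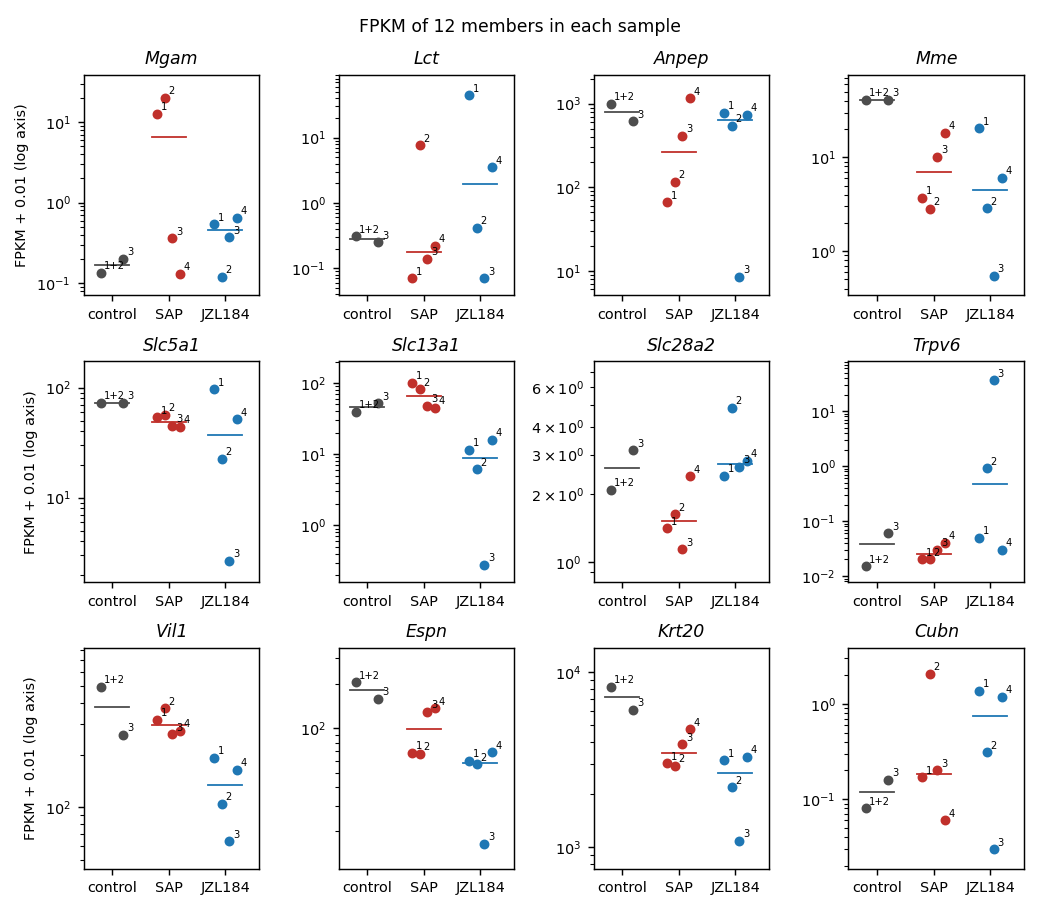
FPKM + 0.01 on a log axis for 12 members in the 2 control samples, 4 SAP and 4 JZL184 libraries, where each point is a sample marked with its library number and each bar is the group median. Slc13a1 and Vil1 show JZL184 below both other groups, Mme and Krt20 show the control samples above the rest, and Mgam, Lct and Trpv6 show high values in 1 or 2 libraries.

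Promoter sequences are shown for the 4 members with the smallest p between JZL184 and SAP (Slc13a1, Mgam, Vil1 and Slc28a2) and for those with an HNF4 motif, to place the factors named above beside the members. They come from RefSeq, build GRCr8, which is not the build of the deposited values, and 39 of the 43 members were matched by symbol, all but Treh, Slc6a20, Slc1a1 and Naaladl1. The 250 bases before each start were searched on both strands for short motifs, and the matches for 3 factors are given. The letters CAAAGTCCA of HNF4 stood in 4 of 39 members (10.3%) and in 0.331% of 27457 promoters. For GATA factors the letters were AGATAA, which 9 members held (23.1%, with 10.0% of all promoters). Abcg5 and Abcg8, both among the 9, have overlapping windows on opposite strands of chromosome 6. Their GATA letters are the same bases, counted once for each gene. CDX2 was searched as TTTATTG, which 3 members had (7.69%, with 4.08% of all). Capitals below mark these letters on either strand. The Slc13a1 promoter has GATA letters at 152 and CDX2 letters at 121 bases before the start, Mgam has GATA letters at 208 and 66 bases and Slc28a2 at 132 bases. Vil1 had 0 matches in this window, so its sequence has no capitals.
Slc13a1, chr4:53612705-53612954, minus strand: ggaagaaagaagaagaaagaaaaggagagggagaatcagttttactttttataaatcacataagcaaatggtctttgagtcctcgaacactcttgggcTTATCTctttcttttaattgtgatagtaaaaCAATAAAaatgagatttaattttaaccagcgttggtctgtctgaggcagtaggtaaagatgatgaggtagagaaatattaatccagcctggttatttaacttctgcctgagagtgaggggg
Mgam, chr4:70408013-70408262, plus strand: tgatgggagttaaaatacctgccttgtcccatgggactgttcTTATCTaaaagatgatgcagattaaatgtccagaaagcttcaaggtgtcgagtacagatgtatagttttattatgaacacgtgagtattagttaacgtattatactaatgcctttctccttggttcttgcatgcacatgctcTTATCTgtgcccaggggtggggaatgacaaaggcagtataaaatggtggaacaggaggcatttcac
Vil1, chr9:83439998-83440247, plus strand: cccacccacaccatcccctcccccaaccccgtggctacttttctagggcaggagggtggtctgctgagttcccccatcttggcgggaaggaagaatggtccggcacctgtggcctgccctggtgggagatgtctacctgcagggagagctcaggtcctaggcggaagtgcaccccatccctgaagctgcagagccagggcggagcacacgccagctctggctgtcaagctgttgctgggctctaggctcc
Slc28a2, chr3:129819538-129819787, plus strand: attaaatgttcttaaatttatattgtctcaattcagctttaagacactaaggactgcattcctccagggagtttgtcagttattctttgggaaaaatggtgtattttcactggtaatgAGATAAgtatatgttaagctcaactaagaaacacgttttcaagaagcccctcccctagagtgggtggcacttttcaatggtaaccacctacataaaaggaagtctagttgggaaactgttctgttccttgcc
The windows of 60 bases with the HNF4 letters were picked once the matches were seen. They show Alpi at 44 bases, Slc3a1 at 89, Pdzk1 at 9 and Trpv6 at 159 bases before the start.
Alpi, chr9:95224790-95224849, minus strand: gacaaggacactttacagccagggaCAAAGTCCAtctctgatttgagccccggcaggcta
Slc3a1, chr6:15394804-15394863, minus strand: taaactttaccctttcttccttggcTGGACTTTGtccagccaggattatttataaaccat
Pdzk1, chr2:187064935-187064994, plus strand: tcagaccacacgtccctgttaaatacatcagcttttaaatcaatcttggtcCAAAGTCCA
Trpv6, chr4:71489792-71489851, minus strand: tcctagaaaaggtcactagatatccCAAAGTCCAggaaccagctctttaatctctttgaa
A match of letters is a description of the sequence, and binding was not measured. The 4 genes with HNF4 letters did not move alike: Trpv6 was highest in JZL184 library 3, where Alpi, Slc3a1 and Pdzk1 were at FPKM of 0.41, 0.48 and 1.28.

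SAP was compared with control to ask what pancreatitis did to these genes. Most members were lower in SAP than in control by edgeR's log2 fold change, with 29 below 0 and 12 above. These were the 41 members with enough reads for a test (not Slc34a2 or Trpv6). Their median log2 fold change was -0.48, against 0.06 over all 16029 genes tested. By edgeR's quasi-likelihood test 0 members were called (a call needs a fold change past 2 or 0.5 at an adjusted p under 0.05), and 0% of all genes were. At an unadjusted p below 0.05, Mgam was higher (1 of 41, with 5.69% of all genes) and Slc5a1, Slc7a7, Mep1a, Mme and Krt20 were lower (5 of 41, with 3.4% of all genes). DESeq2 called 0 of 42 members (0.872% of all genes) and limma-voom 0 of 41 (0.0873%). When control libraries 1 and 2 entered separately, DESeq2 called Mgam higher and Slc7a7, Mme and Krt20 lower, 4 of 42 (6.31% of all genes).

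Mgam had a log2 fold change of 5.47 (SE 2.12) between SAP and control, with an adjusted p of 0.459 in edgeR, the value shared by the members below unless another is given. The log2 fold change of Mgam was 4.59 without SAP library 2 and 0.48 without SAP libraries 1 and 2. Mme had -2.33 (SE 0.73), Mep1a -0.95 (SE 0.30), Krt20 -1.14 (SE 0.39), Slc7a7 -1.07 (SE 0.41) and Slc5a1 -0.73 (SE 0.25). Two-sided exact permutation of the FPKM gave p = 0.0667 for the latter 5, the smallest that 4 against 2 samples allow, and p = 0.267 for Mgam. The 5 were picked on the same libraries, so the permutation is not separate evidence for them. The adjusted p over all alternatives lay at 0.00713 to 0.943 for Mme and 0.00798 to 0.943 for Mgam. Normalized counts of SAP lay below both control samples for 10 of the 41 members (11.9% of all genes) and above both for Slc7a9 alone (11.3% of all genes). Beside Slc5a1, Slc7a7, Mep1a, Mme and Krt20, these were Slc2a5 with -1.33 (SE 0.83) and an adjusted p of 0.470, Slc6a20 with -0.94 (SE 0.44), Espn with -1.0 (SE 0.44), Pdzk1 with -0.99 (SE 0.49) and Slc3a1 with -0.51 (SE 0.31) and an adjusted p of 0.464. Slc7a9 had 0.57 (SE 0.33) and an adjusted p of 0.461 in edgeR.

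By role, the fold changes of SAP over control were below 0 for 7 of 7 structural genes (median -0.87), 3 of 3 sugar carriers (median -0.73), 3 of 3 sterol carriers (median -0.56), 6 of 8 peptide and amino acid carriers (median -0.40) and 6 of 9 peptidases and phosphatase (median -0.37). They were above 0 for 2 of 3 disaccharidases (median 2.61), 3 of 5 genes of iron, folate and cobalamin uptake (median 0.25), 1 of 2 nucleoside carriers (median 0.06) and the sulfate carrier Slc13a1 (0.40). The 10 epithelial genes listed for any gut epithelium had a median of -0.68 themselves, with 3 lower at an unadjusted p below 0.05. Scaled to those genes, the members had 28 fold changes above 0 and 13 below, with a median of 0.30 where the median of all genes moved to 0.81, and 2 structural genes were above 0. The members' median was below that of all genes under both scalings, and the direction against control turned with the scaling. Without SAP library 2, the median was -0.62. Without SAP libraries 1 and 2, it was -0.42, with 35 members below 0.

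JZL184 was compared with SAP to ask what the MAGL inhibitor did in diseased rats. The sulfate carrier Slc13a1, villin, Myo1a, Dpp4, Slc7a9 and Cybrd1 were below every SAP library in all 4 JZL184 libraries. In FPKM alone, the nucleoside carrier Slc28a2 was above every SAP library and Mep1b was just below (at most 224.53 in JZL184, at least 225.04 in SAP). By edgeR 0 of 41 members were called, as were 0% of 15308 genes. At an unadjusted p below 0.05, Slc28a2 was higher (1 of 41, with 10.3% of all genes) and Mgam, Slc13a1, Cybrd1 and Vil1 were lower (4 of 41, with 11.1% of all genes), so that neither share of members exceeded that of all genes. DESeq2 called Mgam and Slc13a1 lower (2 of 41, with 5.35% of all genes) and limma-voom called 0 (4.57% of all genes). In normalized counts, the 6 members below all SAP libraries made 14.6% of the 41, where 5.59% of all genes lay so. By the same measure 0 members lay above all SAP libraries (6.23% of all genes).

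Slc13a1 had a log2 fold change of -2.81 (SE 0.86) and an adjusted p of 0.132 in edgeR and 0.00827 in DESeq2. Without JZL184 library 3 it was -2.41, with an adjusted p of 0.0994 in edgeR, so the difference did not rest on that library. Mgam had -4.11 (SE 1.33) and adjusted p of 0.146 in edgeR and 0.0316 in DESeq2, and its log2 fold change was 0.86 without SAP libraries 1 and 2. Vil1 had -1.06 (SE 0.35) and an adjusted p of 0.151 in edgeR (0.0582 in DESeq2). Slc28a2 had 1.13 (SE 0.38) and 0.159, and its groups did not overlap in FPKM but did in normalized counts. Without JZL184 library 2, its highest sample, the log2 fold change was 0.76 with an unadjusted p of 0.0584 in edgeR. The values of the remaining members were -0.93 (SE 0.37) for Cybrd1 (adjusted p = 0.196 in edgeR), -1.02 (SE 0.58) for Dpp4 (0.319), -1.40 (SE 0.85) for Slc7a9 (0.344) and -0.79 (SE 0.44) for Myo1a (0.310). Exact permutation of the FPKM gave p = 0.0286 for all of these but Mgam (p = 0.371), the smallest that 4 against 4 libraries allow. Groups of this size that do not overlap in FPKM always give that p, so it is not separate evidence. Over the alternatives the adjusted p lay at 0.00827 to 0.310 for Slc13a1, 0.0582 to 0.331 for Vil1 and 0.0686 to 0.375 for Slc28a2.

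The sign of the members' median in this comparison turned when JZL184 library 3 was left out. With 4 JZL184 libraries, 25 of 41 members had a log2 fold change below 0 (median -0.20, with -0.05 over all genes), and without JZL184 library 3, 18 did (median 0.16, with -0.06 over all genes). Without JZL184 libraries 1 and 3 and SAP library 2, all 3 with position markers apart from the rest, 21 were below 0 and the median was -0.08. Leaving out a library cannot make separated groups overlap, so the 6 members below every SAP library in normalized counts had to remain so. Without JZL184 library 3, Slc40a1 joined them, 7 of 41 (15% of all genes, higher or lower). Its FPKM of 3.03 in JZL184 library 3 was the highest of any sample. All 7 structural genes had fold changes below 0 with the 4 libraries (median -0.79), and 6 of 7 without JZL184 library 3 (median -0.48).

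**Figure D4:**
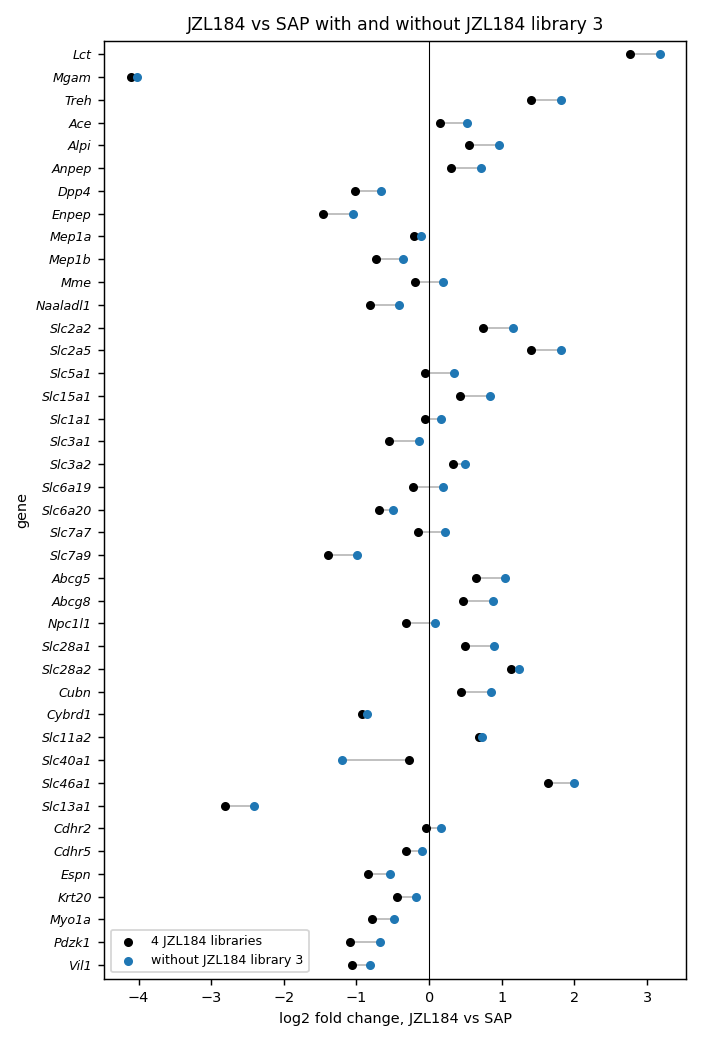
Log2 fold change of each of the 41 members tested between JZL184 and SAP, with all 4 JZL184 libraries (black) and without JZL184 library 3 (blue). Most members shift to the right and Slc40a1 to the left, the median passes from -0.20 to 0.16, and Slc13a1, Mgam and Vil1 stay below 0.

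JZL184 was compared with control, which takes in pancreatitis and the inhibitor together. In normalized counts 6 of 7 structural genes (all but Cdhr2) and several carriers and peptidases lay below both control samples in all 4 JZL184 libraries. By edgeR 0 of 42 members were called (2.16% of all 15916 genes). At an unadjusted p below 0.05, 0 members other than Trpv6 were higher (13.8% of all genes were). Trpv6 is left out of that count because it passed the filter on low counts only through JZL184 libraries 2 and 3. It is still among the 42 members that edgeR tested. At the same p, Slc13a1, Cdhr5, Vil1, Espn, Mep1a, Slc6a20, Mme and Krt20 had lower values (8 of 42, with 12.5% of all genes). DESeq2 called Vil1, Espn, Mep1a, Slc6a20 and Krt20 lower (5 of 42, with 8.29% of all genes), and limma-voom called Vil1, Espn, Slc6a20, Mme and Krt20 (5 of 42, with 18.3% of all genes). With control libraries 1 and 2 as separate samples, edgeR called Cdhr5, Vil1, Espn, Mep1a, Slc6a20 and Krt20 (6 of 41, with 18.1% of all genes). The share of members called was below that of all genes in edgeR and limma-voom and above it in DESeq2. DESeq2 was run without edgeR's filter on low counts, so its share of all genes is over 23543 genes, including many with few reads. The shares of all genes are therefore not over the same genes.

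Espn had a log2 fold change of -1.86 (SE 0.52) and an adjusted p of 0.0850 in edgeR and 0.00857 in DESeq2. Krt20 had -1.60 (SE 0.46), with 0.0902 and 0.0129, and Vil1 -1.58 (SE 0.47), with 0.0940 and 0.0179. Mep1a had -1.19 (SE 0.35), with 0.0933 and 0.0421, and Slc6a20 -1.64 (SE 0.53), with 0.106 and 0.0302. These 5 were the members that DESeq2 called. Mme had -2.53 (SE 0.97) (adjusted p = 0.149 in edgeR), Cdhr5 -1.15 (SE 0.46) (0.161) and Slc13a1 -2.45 (SE 0.99) (0.165). The fitted value for Trpv6, 8.37 (SE 3.41) with an adjusted p of 0.166 in edgeR, came from JZL184 library 3 against at most 5 reads in a control library, so its size depends on the prior count, and Trpv6 had too few reads for the test without that library.

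In normalized counts 16 members lay below both control samples in all 4 JZL184 libraries (19.3% of all genes) and 0 lay above (18.9%). They were the 8 lower at an unadjusted p below 0.05 and 8 others, with log2 fold changes of -2.09 (SE 1.08) for Pdzk1, -1.45 (SE 1.14) for Slc6a19, -1.24 (SE 0.81) for Slc7a7, -1.17 (SE 0.54) for Myo1a, -1.08 (SE 1.04) for Slc3a1, -0.88 (SE 0.72) for Dpp4, -0.86 (SE 1.05) for Slc7a9 and -0.71 (SE 0.41) for Cybrd1 (adjusted p from 0.206 for Myo1a to 0.629 for Slc7a9 in edgeR). Exact permutation of the FPKM gave p = 0.0667 for 12 of the 17 members named here, the smallest possible with 4 and 2 samples, and p = 0.133 for Dpp4, Slc7a7 and Slc7a9, 0.2 for Slc3a1 and 0.533 for Trpv6. The 17 were picked on the same libraries, so the permutation is not separate evidence for them. The median log2 fold change of the members was -0.69 (17 above 0, Trpv6 among them, and 25 below), against 0.08 over all genes. It was -1.58 for the 7 structural genes, all below 0. Scaled to the epithelial genes, the median was -0.17 where that of all genes was 0.55, with 19 members above 0, again including Trpv6. The 7 structural genes were all below 0 with a median of -1.02.

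Leaving out JZL184 library 3 raised the number of calls in this comparison. Without it, edgeR called Slc13a1, Espn and Pdzk1 lower and Cubn higher (4 of 41, with 5.46% of all genes), the median was -0.45, and 17 members lay below and 4 above both control samples (22.5% and 22.4% of all genes). Slc13a1 then had a log2 fold change of -2.04 (adjusted p = 0.0197 in edgeR), Espn -1.56 (0.0258) and Pdzk1 -1.68 (0.0240). Without JZL184 libraries 1 and 3, the median was -0.50 and edgeR called 10 of 41 (19.4% of all genes), which were Slc13a1, Vil1, Npc1l1, Slc7a7, Lct, Cubn, Espn, Pdzk1, Mme and Krt20. Of these, Lct and Cubn were higher in JZL184 and the others lower.

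**Figure D5:**
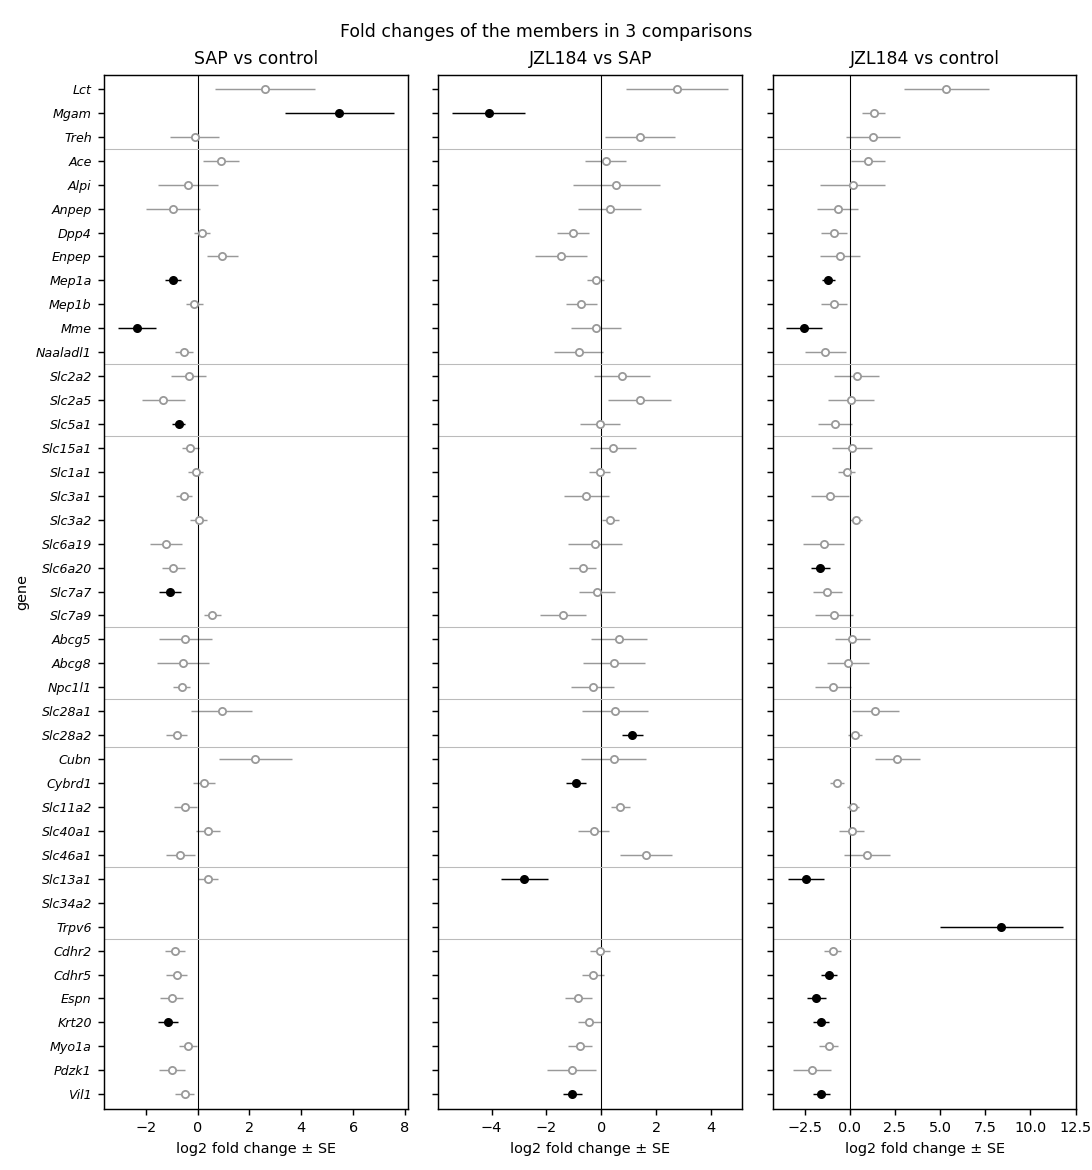
Log2 fold changes with standard errors (bars) of the members tested, by role, in the 3 comparisons. Filled points have an unadjusted p below 0.05 in edgeR, and the structural genes at the bottom lie below 0 in all 3 panels.

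Other genes of the brush border and of nutrient transport, listed apart from the 43, were read in the same fits. Between SAP and control 3 of 41 were higher and 4 lower at an unadjusted p below 0.05 in edgeR (median log2 fold change -0.11), with 5.69% and 3.4% of all genes. Between JZL184 and SAP 2 of 40 were higher and 6 lower (median -0.36), with 10.3% and 11.1% of all genes. Between JZL184 and control 4 of 41 were higher and 11 lower (median -0.33), with 13.8% and 12.5% of all genes. Slc52a3, a riboflavin carrier, was the 1 gene of these called by edgeR, lower in JZL184 than in control, where 2.16% of all genes were called. Of 15 transcription factors of the enterocyte, 0 were called in any comparison by edgeR, with medians of 0.26, 0.09 and 0.17 in the order SAP vs control, JZL184 vs SAP (14 tested) and JZL184 vs control, and their summed FPKM in JZL184 library 3 was the highest of all samples (1016, with 622 to 853 in the others).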

How the data were processed

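Total RNA from rat ileum was sequenced as 11 stranded mRNA libraries. After trimming, the authors aligned reads to mRatBN7.2 with HISAT2. The deposited count of each gene is its number of uniquely aligned reads and was not normalized. The authors also deposited FPKM, scaled for gene length and library size and rounded to 2 decimals. The counting tool, its strand setting and the annotation: not given in the sources used here. Groups were taken from the labels. Reads of control libraries 1 and 2 were summed and their FPKM averaged.

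Pairs of groups were compared over all genes with edgeR 4.0.16 (quasi-likelihood test, TMM, default filter with a minimum count of 10, Benjamini-Hochberg adjustment) in R 4.3.3, with DESeq2 1.42.0 and limma-voom (limma 3.58.1, sample quality weights) beside it, after tests on simulated data. Groups were said not to overlap on TMM-normalized CPM. Fold changes are given for members with an unadjusted p below 0.05 or groups that do not overlap. The alternatives are described in the closing section. The members, the lists of other genes and the tests were chosen with earlier results of these data known. Between 26341299 and 33847135 reads per library were counted, and precision was set by the spread between libraries and, for members with few reads, by counting error. Tables were made with Python 3.11.15. A further motif that was searched in the promoters is not reported here.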

Additional observations from a re-analysis of the deposited data

Results flagged for a closer look

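Within each group of 4 libraries, the highest or lowest FPKM of each member was tested for its distance from the others with Dixon's criterion at the 95% level. Of 86 groups 11 stood out, each by its highest value. Chance flags about 1 in 20 for independent values with a normal distribution. The FPKM were not transformed and their distribution was not tested, so the 11 cannot be read as an excess over that rate. The cause was not tested for any of them. SAP library 2 gave 5 of the 11. These were its Lct at 7.58, Ace at 67.16, Cybrd1 at 1.43, Cubn at 2.05 and Slc34a2 at 0.02, the last from 2 reads. JZL184 library 1 stood out for Lct at 44.45 and for Slc46a1, the folate carrier, at 2.18. JZL184 library 3 stood out for Trpv6 at 36.3 and for Slc40a1 at 3.03. JZL184 library 2 had Slc28a2 at 4.82, and JZL184 library 4 had Mep1a at 27.25. The control group, with 2 samples, was too small for this test.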

How the results depend on the processing

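For named members, 630 values under alternatives (37 pairs of a member and a comparison) gave 579 with the same direction and side of the threshold, 48 newly past it and 3 with another sign. The latter were Slc5a1 (0.057) and Slc3a1 (0.19) in SAP vs control scaled to epithelial genes, and Mgam (0.86) in JZL184 vs SAP without SAP libraries 1 and 2. With 0 members called in the fits reported, no value could fall back over the threshold, so the 579 tell of direction and not of calls that held. Except where a value shows it, the cause was not tested.

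In SAP vs control, DESeq2 with separate control libraries called 4 members instead of 0 (6.31% of all genes). The share of members whose groups did not overlap, 26.8% (23.2% of all genes), was 17.1% with epithelial scaling (29.9% of all genes) and 26.8% to 56.1% with 1 sample left out (25.2% to 54.9% of all genes). The share without overlap can only stay or rise when a sample is left out. When SAP libraries were left out, the count of called members stayed at 0, with at most 0.482% of all genes called. Leaving out samples kept the median at -0.62 to -0.18. Of the members with fold changes given, 5 had the smallest possible exact permutation p on FPKM, and 2 had it on log2(FPKM + 1) and 2 on log2(FPKM + 0.1).

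In JZL184 vs SAP, DESeq2 called 2 members instead of 0 (5.35% of all genes), and leaving out libraries gave 0 throughout. Of all genes, 4.21% were called without JZL184 library 1 and at most 0.00644% in the other fits with libraries left out, so those fits say little about the members. The median ranged from -0.49 to 0.16, the latter without JZL184 library 3. The share without overlap, 14.6% (11.8% of all genes), was 14.6% to 19.5% with 1 library left out (13.6% to 26.5% of all genes). It was 36.6% without JZL184 libraries 1 and 3 and SAP library 2 (37.8% of all genes), an alternative chosen after seeing the data, as were those without JZL184 libraries 1 and 3.

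In JZL184 vs control, 0 members were called in the fit reported. DESeq2 called 5 (8.29% of all genes), DESeq2 with separate control libraries 10 (14.9%), edgeR with separate control libraries 6 (18.1%), limma-voom 5 (18.3%), edgeR without the filter on low counts 1 (3.93%) and without JZL184 libraries 1 and 3 10 (19.4%). With 1 sample left out the count was 0 to 4, with 1 without JZL184 library 1 (12% of all genes) and 4 without JZL184 library 3 (5.46%). The median ranged from -0.94 to -0.45. The share without overlap, 38.1% (38.3% of all genes), was 40.5% to 54.8% with 1 sample left out (41.3% to 58.3% of all genes) and 61.9% without JZL184 libraries 1 and 3 (62.5% of all genes). The smallest possible exact permutation p was reached by 12 members on FPKM, 5 on log2(FPKM + 1) and 4 on log2(FPKM + 0.1).

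SAP and JZL184 libraries of the same number did not deviate together (Pearson r from -0.44 to 0.12 across genes), so the numbers were not taken to pair rats. With the replicate number as a block and separate control libraries, edgeR called 0 members in SAP vs control (median -0.64), 0 in JZL184 vs SAP (median -0.50) and 7 in JZL184 vs control (median -1.48, with 9.65% of all genes called).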
